A study of Mus musculus with 32 samples.

Results

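Genes that lie next to Myd88 on mouse chromosome 9 were followed across cells that carried 0, 1 or 2 intact Myd88 alleles. The set was a list of 58 protein-coding genes around Myd88, fixed by name, and a gene was counted when an array probeset (the group of probes that reads a transcript) was annotated to that symbol alone. Of the 58, 57 were on the array and Susd5 was not. Where a gene had 2 probesets, the brighter over all 32 arrays was used, which concerned Trank1 and Higd1a. The 57 genes spanned 11.18 Mb, with 31 before Myd88 (lower coordinates) and 26 after it, of 19938 genes measured in all. The list did not take every gene of its stretch, and 33 other measured genes lay inside it.

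Expression was measured on gene-level microarrays in 7 groups of mice. The first experiment used pro-B cells, the precursor stage before the immunoglobulin heavy chain is complete, from mice without leukemia: Pax5+/-;Myd88-/-, Pax5+/-;Myd88+/-, Pax5+/- and wild type (WT), 4 arrays each. The second used leukemic bone marrow of Pax5+/-;Myd88+/- and Pax5+/- mice, 6 arrays each, and B220low IgM- cells sorted from WT bone marrow, 4 arrays. Every group but the WT groups carried 1 inactivated germline Pax5 allele in all cells. The Myd88 groups therefore all had a Pax5+/- background, and Pax5+/- cells, with 2 intact Myd88 alleles, were their reference. The inactivated Myd88 allele came from a separate mouse line, with the strain name B6.129P2(SJL) in the methods, that was crossed with Pax5+/- mice. The methods give a mixed C57BL/6×CBA background for both the Pax5+/- and the Pax5+/-;Myd88+/- mice. The labels describe the pro-B samples as marrow cells enriched for B220 on magnetic columns, and the methods add culture of such cells from 2- to 3-week-old mice on a stromal feeder layer with interleukin 7. They do not describe cultures of the Pax5+/-;Myd88-/- genotype. The leukemic marrow was not sorted, so fewer cells of a type and less RNA per cell cannot be told apart there.

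Myd88 encodes the adaptor that couples most Toll-like receptors and the interleukin 1 receptor to NF-kB. When a targeted allele is bred from its strain of origin into another strain, a stretch of chromosome around the target travels with it, and genes of that stretch can carry sequence and expression differences of the donor strain. Such a stretch is expected on both copies of the chromosome in homozygous carriers and on a single copy in heterozygous carriers, so its genes are usually compared by the number of targeted alleles.

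All 8 of the Pax5+/-;Myd88-/- and Pax5+/-;Myd88+/- pro-B arrays lacked signal from Y-linked genes and all 8 of the Pax5+/- and WT pro-B arrays had it. Sex and genotype therefore cannot be told apart where the Myd88 groups were set against Pax5+/- cells, whereas Pax5+/-;Myd88-/- against Pax5+/-;Myd88+/- was within the same sex. Over all probesets replicates 1 and 3 correlated at 0.9972 and replicates 2 and 4 at 0.998 in Pax5+/-;Myd88-/- pro-B cells, against 0.9969 to 0.9977 for the other pairs. The same 2 pairs correlated at 0.9967 and 0.9949 in Pax5+/-;Myd88+/- cells (others 0.9914 to 0.9961), at 0.9965 and 0.9976 in Pax5+/- cells (others 0.9913 to 0.9951) and at 0.9982 and 0.9979 in WT cells (others 0.9906 to 0.9912). The labels call the samples biological replicates and do not say whether such pairs came from separate animals, so that p-values measure the spread between these arrays and n = 4 may count fewer animals. The members were therefore also tested with such pairs averaged. B lineage markers were strong in all pro-B arrays, with a summed log2 signal of 14.88 to 15.41 over 9 genes. Array medians lay between 6.88 and 7.03 on the log2 scale. Of the 57 genes, 28 averaged a log2 intensity of 8 or more, 22 were between 6 and 8, and 7 were below 6, where 31.7% of all probesets lay.

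Myd88 itself lies at chr9:119335934-119340018 (GRCm38) and followed the genotype labels. Its log2 intensities were 7.44, 7.41, 7.04 and 7.38 in Pax5+/-;Myd88-/- pro-B cells, 8.78, 8.51, 8.69 and 8.59 in Pax5+/-;Myd88+/- pro-B cells, 9.27, 9.21, 9.27 and 9.35 in Pax5+/- pro-B cells, and 9.39, 9.59, 9.22 and 9.63 in WT pro-B cells. The first 3 genotypes did not overlap. Relative to Pax5+/- cells the log2 difference was -1.96 (SE 0.10, n = 4 each) in Pax5+/-;Myd88-/- cells and -0.63 in Pax5+/-;Myd88+/- cells (adjusted p = 1.02e-09 and 0.000549, limma). In each, the exact two-sided permutation p was 0.0286, the smallest that 4 against 4 arrays allow. In leukemias Myd88 was 8.26 to 9.39 (median 8.78) with 1 intact allele and 9.87 to 10.38 (median 10.1) with 2 intact alleles, without overlap.

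The share of flanking genes that differed with both Myd88 alleles inactivated was near that of all probesets. In Pax5+/-;Myd88-/- against Pax5+/- pro-B cells 5 of 57 passed the test (8.77%), and among all 28944 probesets the share was 11.5%. The test throughout was limma with p-values adjusted over all probesets, called at an adjusted p under 0.05. Itga9, Ctdspl and Xylb fell, with 4.86% of all probesets lower, and Higd1a and Ano10 rose, with 6.66% of all higher. Itga9, and Higd1a on its brighter probeset, exceeded 2-fold, which is 3.51% of the genes beside 0.981% of all probesets. With the second probesets of Higd1a and Trank1 in their place, 4 of the 57 passed (7.02%). The median absolute log2 difference was 0.09 over the flanking genes and 0.09 over all probesets. For 50 of the 57 genes the 95% interval of the difference lay within 1.5-fold in either direction. The 2 groups did not overlap for 9 of the genes (15.8%, and 16.3% of all probesets). Without Pax5+/- replicate 1 the count was 10 (17.5%, and 17.5% of all probesets), and with the paired replicates averaged it was 3 (5.26%, and 1.85% of all). The shares of flanking genes and of all probesets were 5.26% and 4.45% in the fit over all 7 groups. They were 10.5% and 6.38% without Pax5+/- replicate 2, and 10.5% and 13.7% with the 2 groups fitted alone. Which share was larger thus changed with the setting. Stromal and feeder cell markers had a median difference of -0.45 here (0 of 10 higher and 1 lower), with a summed log2 signal of 10.88 to 11.32 in Pax5+/-;Myd88-/- and 10.83 to 12.59 in Pax5+/- cells, and their part was not tested.

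Itga9 encodes the integrin alpha 9 chain, a cell adhesion receptor subunit, and lies 434.9 kb before Myd88. Its log2 intensities were 7.10, 6.65, 7.14 and 6.53 in Pax5+/-;Myd88-/- pro-B cells, 8.23, 8.69, 8.34 and 8.92 in Pax5+/-;Myd88+/- cells, 8.86, 9.39, 8.95 and 9.47 in Pax5+/- cells, and 7.43, 6.32, 7.38 and 6.66 in WT cells. The Pax5+/-;Myd88-/- arrays lay below all arrays of the other Pax5+/- genotypes and within the range of the WT arrays, which carried 2 intact Myd88 alleles. The difference was -2.31 (SE 0.24, n = 4 each, adjusted p = 6.94e-06, limma) against Pax5+/- cells and -1.69 (SE 0.24, adjusted p = 0.000245) against Pax5+/-;Myd88+/- cells. In Pax5+/-;Myd88+/- against Pax5+/- cells it was -0.62 (SE 0.24, adjusted p = 0.248). With the paired replicates averaged the adjusted p against Pax5+/-;Myd88+/- cells was 0.0981.

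Ctdspl and Xylb, which lie 291.8 kb before and 17.4 kb after Myd88, were the other flanking genes that fell in both comparisons of Pax5+/-;Myd88-/- cells. Ctdspl encodes a small phosphatase that acts on the C-terminal domain of RNA polymerase II. It read 8.23, 8.31, 8.27 and 8.24 in Pax5+/-;Myd88-/- cells, 8.82, 8.64, 8.77 and 8.80 in Pax5+/-;Myd88+/- cells, 8.67, 8.92, 8.70 and 8.82 in Pax5+/- cells and 8.80, 8.94, 8.77 and 8.83 in WT cells. All 4 Pax5+/-;Myd88-/- arrays thus lay below every other pro-B array, while the remaining 3 genotypes overlapped. The difference was -0.51 (SE 0.06, adjusted p = 3.33e-05) against Pax5+/- cells and -0.50 (adjusted p = 6.68e-05) against Pax5+/-;Myd88+/- cells. Ctdspl kept both calls in every alternative run. In the leukemias it was 7.84 to 8.68 with 1 intact Myd88 allele and 8.11 to 8.91 with 2 intact alleles, which overlapped.

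Xylb encodes xylulokinase, a sugar kinase. Its values were 6.76, 6.79, 6.77 and 6.77 in Pax5+/-;Myd88-/- cells, 7.31, 7.25, 7.27 and 7.15 in Pax5+/-;Myd88+/- cells, 7.0, 7.37, 6.98 and 7.32 in Pax5+/- cells, and 6.66, 6.98, 6.83 and 7.01 in WT cells. The Pax5+/-;Myd88-/- arrays were below all Pax5+/-;Myd88+/- and Pax5+/- arrays and inside the WT range. The difference was -0.40 (SE 0.09, adjusted p = 0.0107) against Pax5+/- cells and -0.47 (adjusted p = 0.00346) against Pax5+/-;Myd88+/- cells. With the paired replicates averaged these were no longer called, at adjusted p = 0.21 and 0.154.

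Higd1a and Ano10 lie 2.51 and 2.84 Mb after Myd88. Higd1a encodes a mitochondrial inner membrane protein induced by hypoxia. Its brighter probeset read 8.71, 8.40, 8.39 and 8.76 in Pax5+/-;Myd88-/- cells, 7.28, 7.06, 7.64 and 7.39 in Pax5+/-;Myd88+/- cells, 8.0, 7.15, 7.01 and 7.09 in Pax5+/- cells and 7.35, 7.66, 7.42 and 7.45 in WT cells. The Pax5+/-;Myd88-/- arrays were above all others, by 1.25 (SE 0.18, adjusted p = 0.000219) against Pax5+/- cells. Its second probeset did not show this, at 6.50 ± 0.13 in Pax5+/-;Myd88-/- cells and 6.61 ± 0.14 in Pax5+/- cells (SD, n = 4 each; log2 difference -0.11, adjusted p = 0.422). Of the 10 named probesets nearest in identifier to the brighter probeset, 10 belonged to genes of chromosome 3, and for the dimmer probeset 10 of 10 belonged to genes of chromosome 9. The rise of Higd1a therefore rests on a probeset whose placement next to Myd88 was not tested.

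Ano10 encodes a membrane protein of the anoctamin (TMEM16) family. It read 8.49, 8.51, 8.33 and 8.51 in Pax5+/-;Myd88-/- cells, 8.46, 8.40, 8.58 and 8.58 in Pax5+/-;Myd88+/- cells, 8.29, 8.23, 7.99 and 8.21 in Pax5+/- cells and 8.31, 8.17, 8.24 and 8.37 in WT cells. Both Myd88 genotypes lay above the Pax5+/- arrays, at a log2 difference of 0.28 (SE 0.07, adjusted p = 0.0198) with 0 intact alleles and 0.32 (adjusted p = 0.0115) with 1 intact allele. Between the Myd88 genotypes the difference was -0.04, so the level did not step with the number of alleles. The first of these calls was lost without Pax5+/- replicate 3 or without Pax5+/-;Myd88-/- replicate 1, 2 or 4, at adjusted p = 0.0574 to 0.0626.

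**Figure D1:**
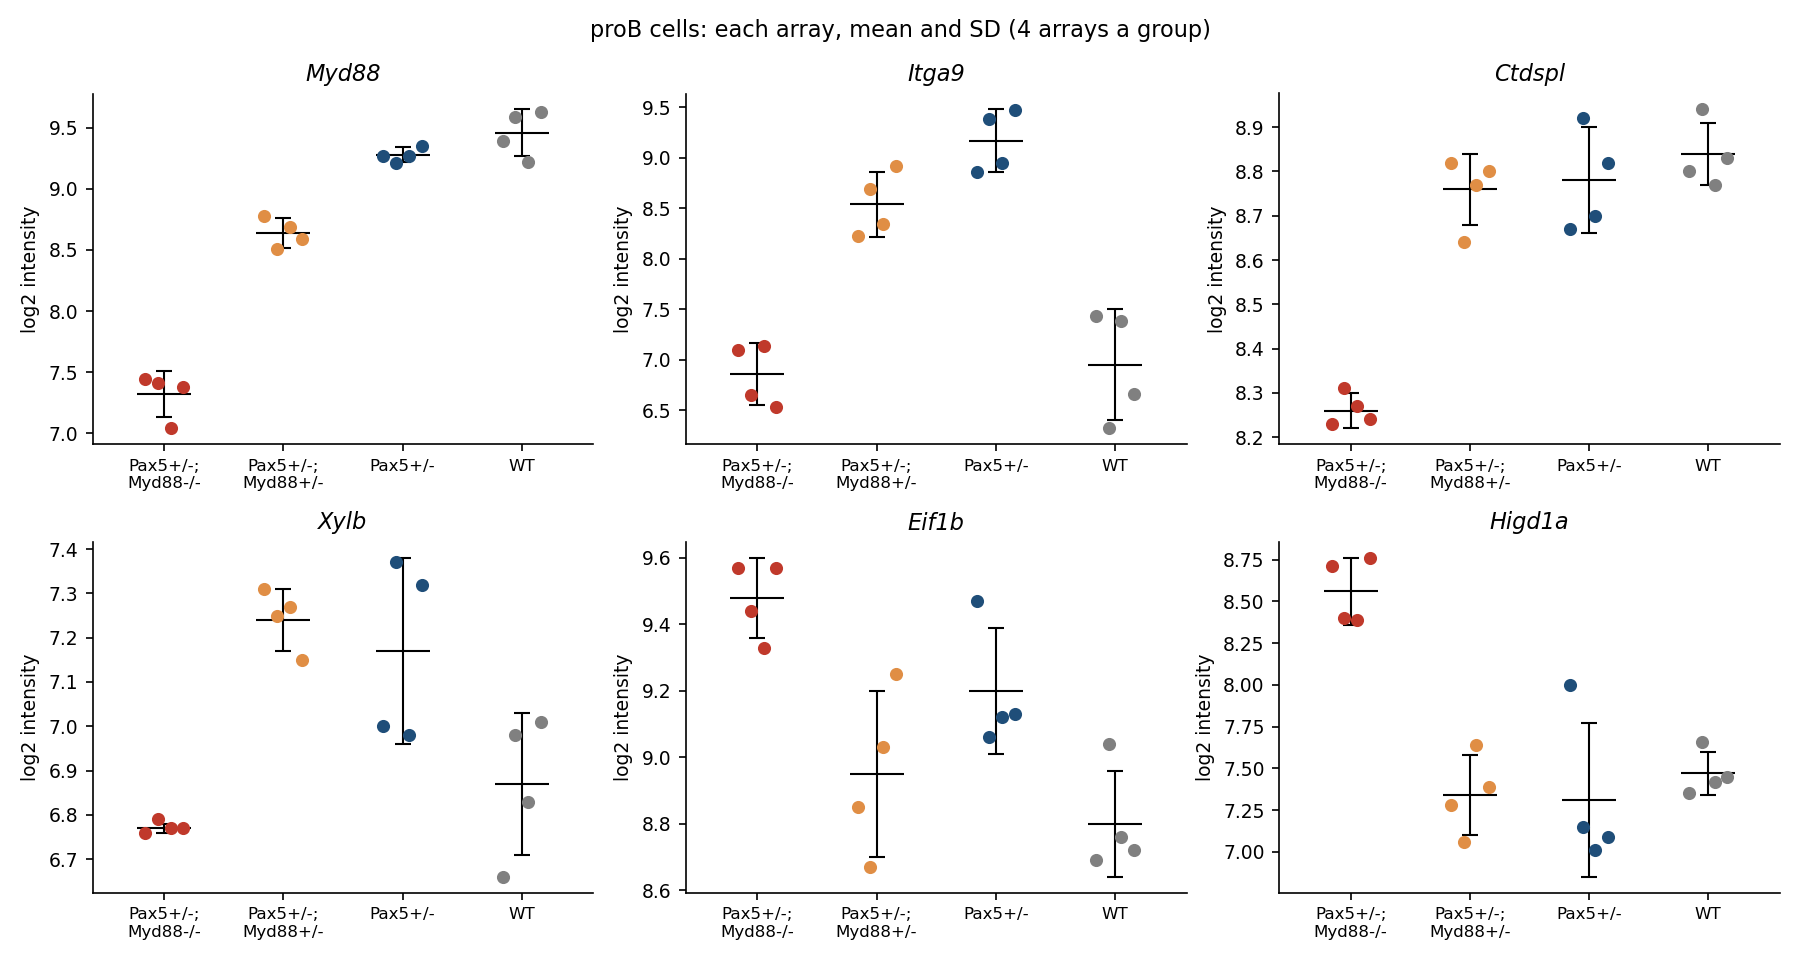
Log2 intensity (vertical axis, a separate scale in each panel) of Myd88 and 5 flanking genes in pro-B cells of 4 genotypes, with a point per array and the mean and SD over 4 arrays. Myd88 is lowest in Pax5+/-;Myd88-/- cells and in between in Pax5+/-;Myd88+/- cells, whereas Ctdspl is low in Pax5+/-;Myd88-/- cells alone and the Itga9 and Xylb points of Pax5+/-;Myd88-/- cells lie within the range of the WT points.

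With 1 inactivated Myd88 allele, a single flanking gene of the list passed the test. In Pax5+/-;Myd88+/- against Pax5+/- pro-B cells this was Ano10, 1 of 57 (1.75%) beside 4.3% of all probesets, and none exceeded 2-fold beside 0.812% of all. At an unadjusted p under 0.05 there were 5 genes (8.77%, and 11.7% of all probesets). The differences ran between -0.62 (Itga9) and 0.32 (Ano10), and for 56 of the 57 genes the 95% interval lay within 1.5-fold in either direction. The Ano10 call was lost in 5 alternative settings, at adjusted p up to 1.

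Between the Myd88 genotypes, which shared their sex, 7 of 57 flanking genes passed in Pax5+/-;Myd88-/- against Pax5+/-;Myd88+/- pro-B cells (12.3%), beside 10.4% of all probesets. Itga9, Ctdspl, Xylb and Stac fell, and Higd1a, Eif1b and Sec22c rose, with 4.04% of all probesets lower and 6.34% higher. Itga9, and Higd1a on its brighter probeset, exceeded 2-fold (3.51%, and 0.805% of all). With the second probesets of Higd1a and Trank1 the count was 6 (10.5%). The groups did not overlap for 13 genes (22.8%, and 18.4% of all probesets). The count was 12 without Pax5+/-;Myd88+/- replicate 3 (21.1%, and 14.8% of all probesets) and 3 with the paired replicates averaged (5.26%, and 1.55% of all).

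Eif1b, 1.15 Mb after Myd88, encodes a protein related to the initiation factor that selects the start codon. It read 9.57, 9.44, 9.33 and 9.57 in Pax5+/-;Myd88-/- cells, 8.85, 8.67, 9.03 and 9.25 in Pax5+/-;Myd88+/- cells, 9.47, 9.06, 9.12 and 9.13 in Pax5+/- cells, and 8.69, 9.04, 8.76 and 8.72 in WT cells. The Pax5+/-;Myd88-/- arrays lay above the Pax5+/-;Myd88+/- arrays by 0.53 (SE 0.12, adjusted p = 0.0107) and overlapped the Pax5+/- arrays, with a difference of 0.28 (adjusted p = 0.143). Sec22c, a protein of transport between endoplasmic reticulum and Golgi, was 7.81, 7.91, 7.84 and 7.76 in Pax5+/-;Myd88-/- cells and 7.51, 7.58, 7.34 and 7.57 in Pax5+/-;Myd88+/- cells, without overlap (difference 0.33, adjusted p = 0.0121). Stac, an adaptor protein with an SH3 domain, was 6.01 ± 0.13 in Pax5+/-;Myd88-/- cells and 6.24 ± 0.11 in Pax5+/-;Myd88+/- cells (SD, n = 4 each; difference -0.23, adjusted p = 0.0484). That call was lost without Pax5+/-;Myd88+/- replicate 1, 2 or 4 or without Pax5+/-;Myd88-/- replicate 1, 3 or 4, at adjusted p = 0.0827 to 0.16. Crtap, a subunit of the collagen prolyl 3-hydroxylation complex, had a difference of 0.50 (SE 0.16) and did not pass the test.

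The sequences before the start of 3 flanking genes that passed in a comparison by Myd88 allele are shown with the motifs of NF-kB, which acts downstream of Myd88, and of the B lineage factor EBF1. They are the 250 bases before the start set in the promoter sequences (RefSeq, GRCm38.p6), and such a window was found for 52 of the 57 genes. Capitals mark matches, on either strand, to the NF-kB motif or to CCCNNGGG, the core bound by EBF1, and matches may overlap. Ctdspl is on the plus strand (chr9:118926286-118926535) and held neither motif. Eif1b is on the plus strand (chr9:120492356-120492605) and held 4 matches to the core, overlapping in part. Ano10 is on the minus strand (chr9:122294424-122294673) and held 1 match to each. The gene positions used elsewhere in the text start Ano10 at 122294444. By those positions the last bases of its window lie inside the gene, and the NF-kB match is among them.
Ctdspl: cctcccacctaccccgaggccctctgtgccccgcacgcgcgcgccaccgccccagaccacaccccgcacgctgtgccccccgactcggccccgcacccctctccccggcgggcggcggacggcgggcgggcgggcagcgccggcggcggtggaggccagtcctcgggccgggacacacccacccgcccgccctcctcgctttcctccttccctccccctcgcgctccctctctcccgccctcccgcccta
Eif1b: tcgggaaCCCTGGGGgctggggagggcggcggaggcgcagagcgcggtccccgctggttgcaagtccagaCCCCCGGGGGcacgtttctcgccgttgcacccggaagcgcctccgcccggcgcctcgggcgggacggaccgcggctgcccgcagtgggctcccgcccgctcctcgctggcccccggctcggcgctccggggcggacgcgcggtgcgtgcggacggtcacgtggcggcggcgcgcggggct
Ano10: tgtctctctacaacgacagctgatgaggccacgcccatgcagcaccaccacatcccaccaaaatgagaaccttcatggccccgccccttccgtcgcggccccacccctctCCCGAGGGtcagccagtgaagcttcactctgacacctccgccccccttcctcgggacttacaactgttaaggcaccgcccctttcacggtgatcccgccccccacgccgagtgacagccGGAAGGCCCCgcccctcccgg
Over the 52 genes, 1 window held the NF-kB motif (1.9%), and 7.3% of all 32851 windows did. The core was in 8 of the 52 windows (15.4%) and in 11.8% of all.

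The 4 listed genes nearest to Myd88 on either side showed no common step. Before it lie Oxsr1, a kinase activated by osmotic stress, Slc22a13 and Slc22a14, transporters of the organic anion and cation family, and Acaa1b, a peroxisomal thiolase. Acaa1a, also a peroxisomal thiolase, lies 1.0 kb after Myd88, followed by Xylb, by Acvr2b, an activin receptor, and by Exog, a mitochondrial nuclease. Slc22a13b, measured but outside the list, lies between Slc22a13 and Oxsr1. It differed by -0.08 with 0 and by 0.01 with 1 intact allele against Pax5+/- pro-B cells (adjusted p = 0.513 and 0.994, limma). Oxsr1, 13.2 kb away, read 9.83, 9.73, 9.65 and 9.82 in Pax5+/-;Myd88-/- cells, 9.78, 9.80, 9.93 and 9.83 in Pax5+/-;Myd88+/- cells, 9.79, 9.82, 10 and 9.89 in Pax5+/- cells and 9.75, 10.04, 9.65 and 10.07 in WT cells. Acaa1a read 8.11, 8.24, 8.24 and 8.15 in Pax5+/-;Myd88-/- cells, 8.22, 8.18, 8.16 and 8.14 in Pax5+/-;Myd88+/- cells, 8.05, 8.17, 8.09 and 8.09 in Pax5+/- cells and 8.01, 8.05, 8.23 and 7.92 in WT cells. For both genes all 4 genotypes overlapped, and the differences of the Myd88 genotypes from Pax5+/- cells lay between -0.12 and 0.08.

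Slc22a13 read 7.76, 7.68, 7.59 and 7.72 in Pax5+/-;Myd88-/- cells, 7.75, 7.87, 7.76 and 7.86 in Pax5+/-;Myd88+/- cells, 7.56, 7.56, 7.68 and 7.72 in Pax5+/- cells and 7.75, 7.85, 7.95 and 7.69 in WT cells. Slc22a14 was dim throughout, with 5.32, 5.40, 5.28 and 5.14 in Pax5+/-;Myd88-/- cells, 5.37, 5.35, 5.26 and 5.44 in Pax5+/-;Myd88+/- cells, 5.24, 5.24, 5.23 and 5.22 in Pax5+/- cells and 5.28, 5.31, 5.30 and 5.28 in WT cells. Both transporters were highest on average in Pax5+/-;Myd88+/- cells among the 3 Pax5+/- genotypes, and neither passed the test. Acaa1b read 7.30, 7.19, 7.16 and 7.08 in Pax5+/-;Myd88-/- cells, 7.35, 7.28, 6.88 and 7.09 in Pax5+/-;Myd88+/- cells, 7.10, 7.15, 7.32 and 7.27 in Pax5+/- cells and 7.14, 6.99, 7.01 and 7.07 in WT cells. Exog read 7.55, 7.52, 7.46 and 7.63 in Pax5+/-;Myd88-/- cells, 7.51, 7.36, 7.47 and 7.24 in Pax5+/-;Myd88+/- cells, 7.53, 7.32, 7.50 and 7.46 in Pax5+/- cells and 7.45, 7.57, 7.52 and 7.79 in WT cells. Neither separated the genotypes. Acvr2b read 7.82, 7.76, 7.78 and 7.73 in Pax5+/-;Myd88-/- cells, 7.93, 7.93, 7.85 and 8.15 in Pax5+/-;Myd88+/- cells, 8.03, 8.04, 7.89 and 8.02 in Pax5+/- cells and 7.57, 7.36, 7.64 and 7.41 in WT cells. Its Pax5+/-;Myd88-/- arrays lay below those of both other Pax5+/- genotypes, and the differences of -0.22 and -0.19 missed the threshold (adjusted p = 0.0561 against Pax5+/- and 0.0931 against Pax5+/-;Myd88+/- cells).

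Tested as a slope per intact Myd88 allele over the 3 Pax5+/- genotypes, 3 of 57 flanking genes passed beside 6.69% of all probesets. Itga9 rose by 1.16 per intact allele (SE 0.13, adjusted p = 0.000144), Ctdspl rose by 0.26 (adjusted p = 0.00685) and Higd1a fell by 0.63 (adjusted p = 0.0142), the last without Pax5+/-;Myd88-/- replicate 4 at adjusted p = 0.0502. Pax5+/-;Myd88+/- cells differed from Pax5+/- cells by -0.02 for Ctdspl and 0.03 for Higd1a. For these 2 genes the slope is therefore not an even step per allele. None of the 57 genes had arrays ordered by allele number without overlap, beside 0.487% of all probesets, as Myd88 did. Itga9 became so ordered without Pax5+/- replicate 1 or without Pax5+/-;Myd88+/- replicate 4. Without Pax5+/- replicate 1 the slope passed for 6 genes (10.5%, and 16.2% of all probesets), without Pax5+/- replicate 3 for 5 (8.77%, and 4.9% of all), and with the paired replicates averaged for 0 (0.228% of all). The slope on the 2 genotypes of the same sex alone passed for 8 (14%, and 14% of all probesets). With 2 genotypes this slope is their difference, tested on those groups alone, and is not a separate check by allele number.

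**Figure D2:**
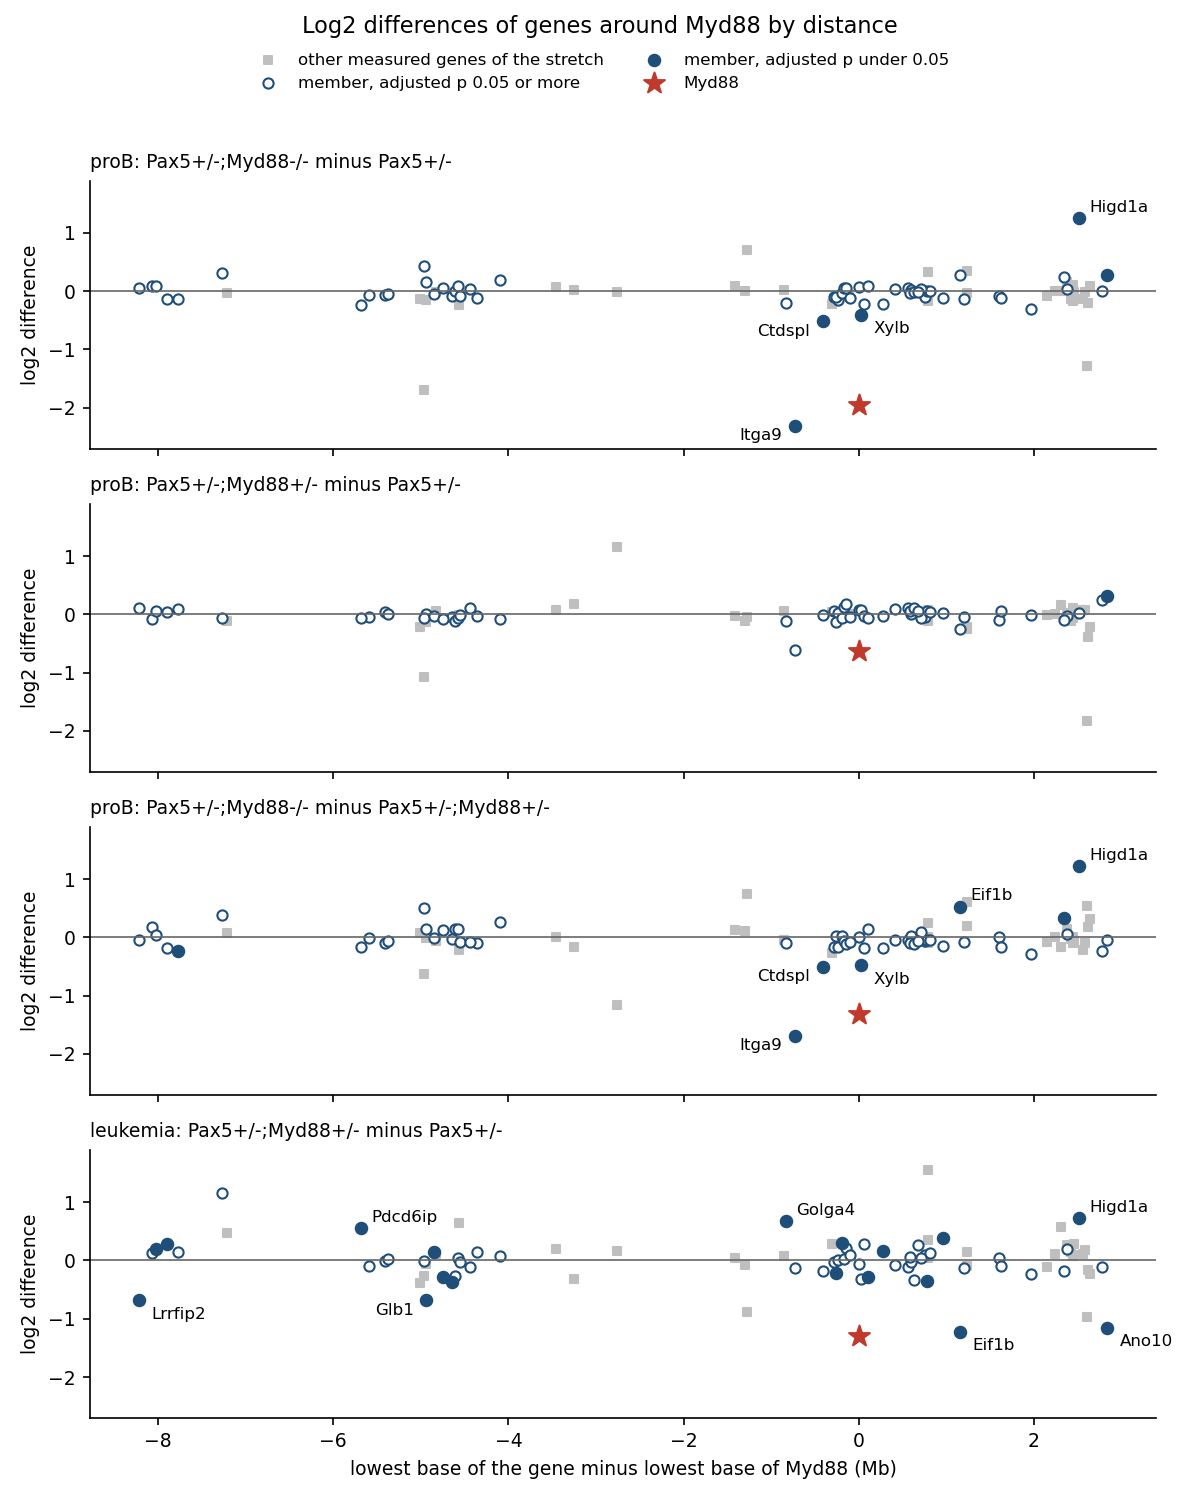
Log2 difference (vertical axis) of the genes around Myd88 against the lowest coordinate of the gene minus that of Myd88 in Mb (horizontal axis), in 4 comparisons, with circles for the 57 flanking genes (filled where the adjusted p is under 0.05), grey squares for other measured genes of the stretch and a star for Myd88. Few circles are filled in the 3 pro-B comparisons, those filled within 1 Mb of Myd88 lie below 0, and most open circles lie near 0 on both sides of Myd88.

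Within 1 Mb of Myd88 3 of 26 listed genes passed in Pax5+/-;Myd88-/- against Pax5+/- pro-B cells (11.5%), beside 11.5% of all probesets. All 3 were lower (Itga9, Ctdspl and Xylb), and the other 23 did not pass. Itga9 and Ctdspl are next to each other on the list, and between Ctdspl and Xylb lie Myd88 and 8 members that did not pass. Between 1 and 4 Mb 2 of 10 passed (20%), both higher, with Higd1a on its brighter probeset, and farther than 4 Mb 0 of 21 passed. In Pax5+/-;Myd88+/- against Pax5+/- cells the counts were 0, 1 and 0 of the same 26, 10 and 21 genes, beside 4.3% of all probesets. Between the Myd88 genotypes they were 3, 3 and 1 (11.5%, 30% and 4.76%), beside 10.4% of all. In Pax5+/-;Myd88+/- against Pax5+/- leukemias they were 7, 3 and 8 (26.9%, 30% and 38.1%), beside 34.4% of all. Among the 33 other measured genes inside the stretch, outside the list, 3 passed in pro-B cells with 0 intact alleles (9.09%, and 11.5% of all probesets). With 1 intact allele 4 passed (12.1%, and 4.3% of all). Past 2-fold were 2 with 0 intact alleles (6.06%, and 0.981% of all) and 3 with 1 intact allele (9.09%, and 0.812% of all). The transcript 4930520O04Rik differed by -1.70 with 0 and by -1.08 with 1 intact allele (adjusted p = 5.47e-07 and 8.31e-05). The transcript 1700048O20Rik differed by -1.29 and -1.83 (adjusted p = 0.00166 and 6.41e-05). Rbms3, an RNA-binding protein, was 1.15 higher in Pax5+/-;Myd88+/- cells than in Pax5+/- cells and differed by -0.01 in Pax5+/-;Myd88-/- cells. Of the 1107 other measured genes of chromosome 9, 11.7%, 4.88% and 8.76% passed in Pax5+/-;Myd88-/- against Pax5+/- cells, in Pax5+/-;Myd88+/- against Pax5+/- cells and between the Myd88 genotypes.

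Between genotypes that both carried 2 intact Myd88 alleles, Pax5+/- and WT pro-B cells, 3 of 57 flanking genes passed (5.26%), beside 7.06% of all probesets. Itga9 rose by 2.22 (adjusted p = 1.02e-05) in this comparison, in which the number of Myd88 alleles was the same. Acvr2b rose by 0.50 (adjusted p = 0.000182), with all Pax5+/- arrays above all WT arrays. Gpd1l, an enzyme related to glycerol 3-phosphate dehydrogenase, fell by 0.46, at 9.02 ± 0.08 in Pax5+/- cells and 9.48 ± 0.12 in WT cells (SD, n = 4 each). For scale, 5 of the 58 genes nearest to Pax5 on chromosome 4 passed in the same comparison (8.62%), and 0 of them in the fit over all 7 groups. In that fit 3 of the 57 genes flanking Myd88 passed (5.26%), beside 1.85% of all probesets.

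**Figure D3:**
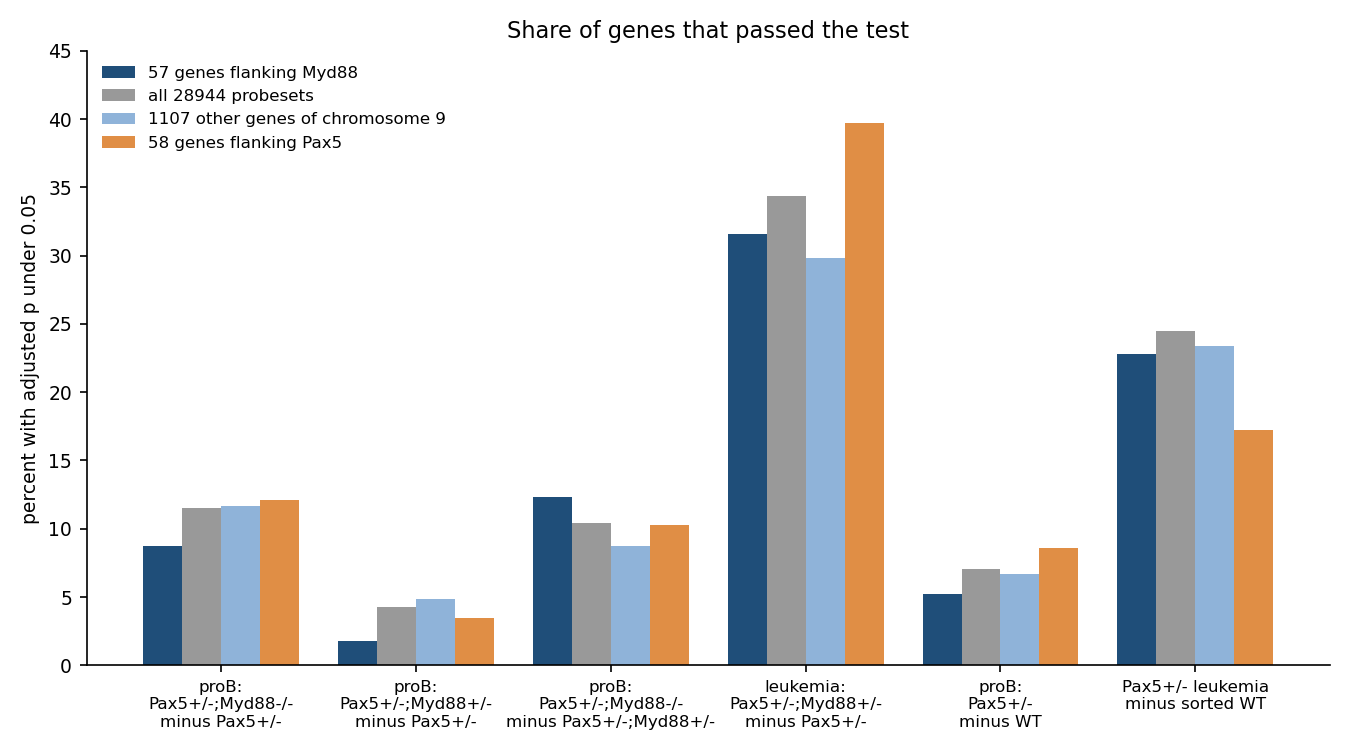
Percent of genes with an adjusted p under 0.05 (vertical axis, starting at 0) in 6 comparisons, for the 57 genes flanking Myd88, all 28944 probesets, 1107 other genes of chromosome 9 and 58 genes flanking Pax5. The share of the Myd88 flank is below that of all probesets in 5 of the 6 comparisons and above it, at 12.3% beside 10.4%, between the Myd88 genotypes.

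In the leukemias many more genes differed, near Myd88 as elsewhere. In Pax5+/-;Myd88+/- against Pax5+/- leukemic marrow 18 of 57 flanking genes passed (31.6%), beside 34.4% of all probesets. Of these, 9 were higher and 9 lower (15.8% each), beside 18.1% higher and 16.3% lower of all. The higher genes Ccr4, Scn10a and Trank1 were dim, with mean log2 intensities of 5.31 to 5.78 in the 2 leukemia groups. In 12 fits with 1 array left out Scn10a lost its call in 9 and Trank1 in 4. Eif1b and Ano10 exceeded 2-fold, 3.51% of the genes beside 3.81% of all probesets. The groups did not overlap for 5 genes, Eif1b, Glb1, Golga4, Dync1li1 and Myrip (8.77%, and 14.3% of all probesets). The count was 10 without Pax5+/- leukemia replicate 1 (17.5%, and 31.4% of all probesets). With the sex read from Y-linked genes as a covariate it was 17 (29.8%, and 31.8% of all probesets). Marker lists of other marrow cells were measured beside them. T cell markers had a median difference of 0.09 (1 higher and 0 lower of 9) and NK cell markers 0.09 (0 higher and 1 lower of 10). Erythroid markers were at 0.17 (0 higher and 1 lower of 6). Macrophage markers had a median difference of -0.90 (0 of 10 passed higher and 2 lower), granulocyte markers -1.21 (0 higher and 1 lower of 10), platelet markers -0.99 (0 higher and 2 lower of 8), B lineage markers -0.06 (2 higher and 1 lower of 9), and stromal markers -0.53 (0 higher and 4 lower of 10), beside the 18.1% of all probesets higher and 16.3% lower. Summed over its list on the log2 scale, the macrophage signal was 10.34 to 14.25 in Pax5+/-;Myd88+/- and 12.16 to 13.95 in Pax5+/- leukemias, and the B lineage signal was 13.19 to 15.08 in Pax5+/-;Myd88+/- and 12.73 to 15.25 in Pax5+/- leukemias. The part of these cells in the differences was not tested.

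Eif1b was 9.12 to 9.93 (median 9.36) in Pax5+/-;Myd88+/- leukemias and 10.45 to 10.97 (median 10.69) in Pax5+/- leukemias, a difference of -1.22 (SE 0.13, n = 6 each, adjusted p = 5.85e-06), while sorted WT cells read 10.89, 10.95, 10.99 and 10.88. All Pax5+/-;Myd88+/- leukemias lay below all other arrays of this experiment. In pro-B cells with the same genotypes the difference was -0.25 and did not pass. Ano10 was 5.70 to 7.77 (median 7.11) in Pax5+/-;Myd88+/- leukemias and 6.65 to 8.79 (median 8.48) in Pax5+/- leukemias, with overlap (difference -1.15, SE 0.37, adjusted p = 0.0266), opposite in sign to pro-B cells. That call was lost without Pax5+/-;Myd88+/- leukemia replicate 1 or without Pax5+/- leukemia replicate 1, 4 or 5, at adjusted p = 0.0557 to 0.0603.

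Glb1, the lysosomal beta-galactosidase, was 8.86 to 9.27 (median 9.08) in Pax5+/-;Myd88+/- leukemias and 9.48 to 10.02 (median 9.73) in Pax5+/- leukemias (difference -0.68, adjusted p = 5.22e-05). Golga4, a golgin of the trans-Golgi network, was 8.81 to 9.35 (median 9.01) in Pax5+/-;Myd88+/- leukemias and 8.25 to 8.48 (median 8.38) in Pax5+/- leukemias (difference 0.68, adjusted p = 1.42e-05). Both lay without overlap, in opposite directions. Lrrfip2, which binds Myd88 in Toll-like receptor signalling and lies 8.11 Mb before it, was 7.42 to 7.96 in Pax5+/-;Myd88+/- leukemias and 7.80 to 8.79 in Pax5+/- leukemias with overlap (difference -0.68, adjusted p = 0.00274). Pdcd6ip (ALIX), a protein of endosomal sorting, rose by 0.55 (adjusted p = 0.00223), and Myrip, a linker of Rab27 and myosin VIIa, rose by 0.38 (adjusted p = 0.000112). Dclk3, a kinase of the doublecortin-like family, rose by 0.29. Dync1li1, a light intermediate chain of cytoplasmic dynein, fell by 0.37 (adjusted p = 0.000533). Higd1a rose by 0.73 on its brighter probeset (adjusted p = 0.00549) and differed by 0.02 on the other. Arpp21, an RNA-binding phosphoprotein, had the largest positive difference, 1.16 (SE 0.46), and did not pass, with 7.81 to 10.66 in Pax5+/-;Myd88+/- leukemias and 7.10 to 8.70 in Pax5+/- leukemias.

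**Figure D4:**
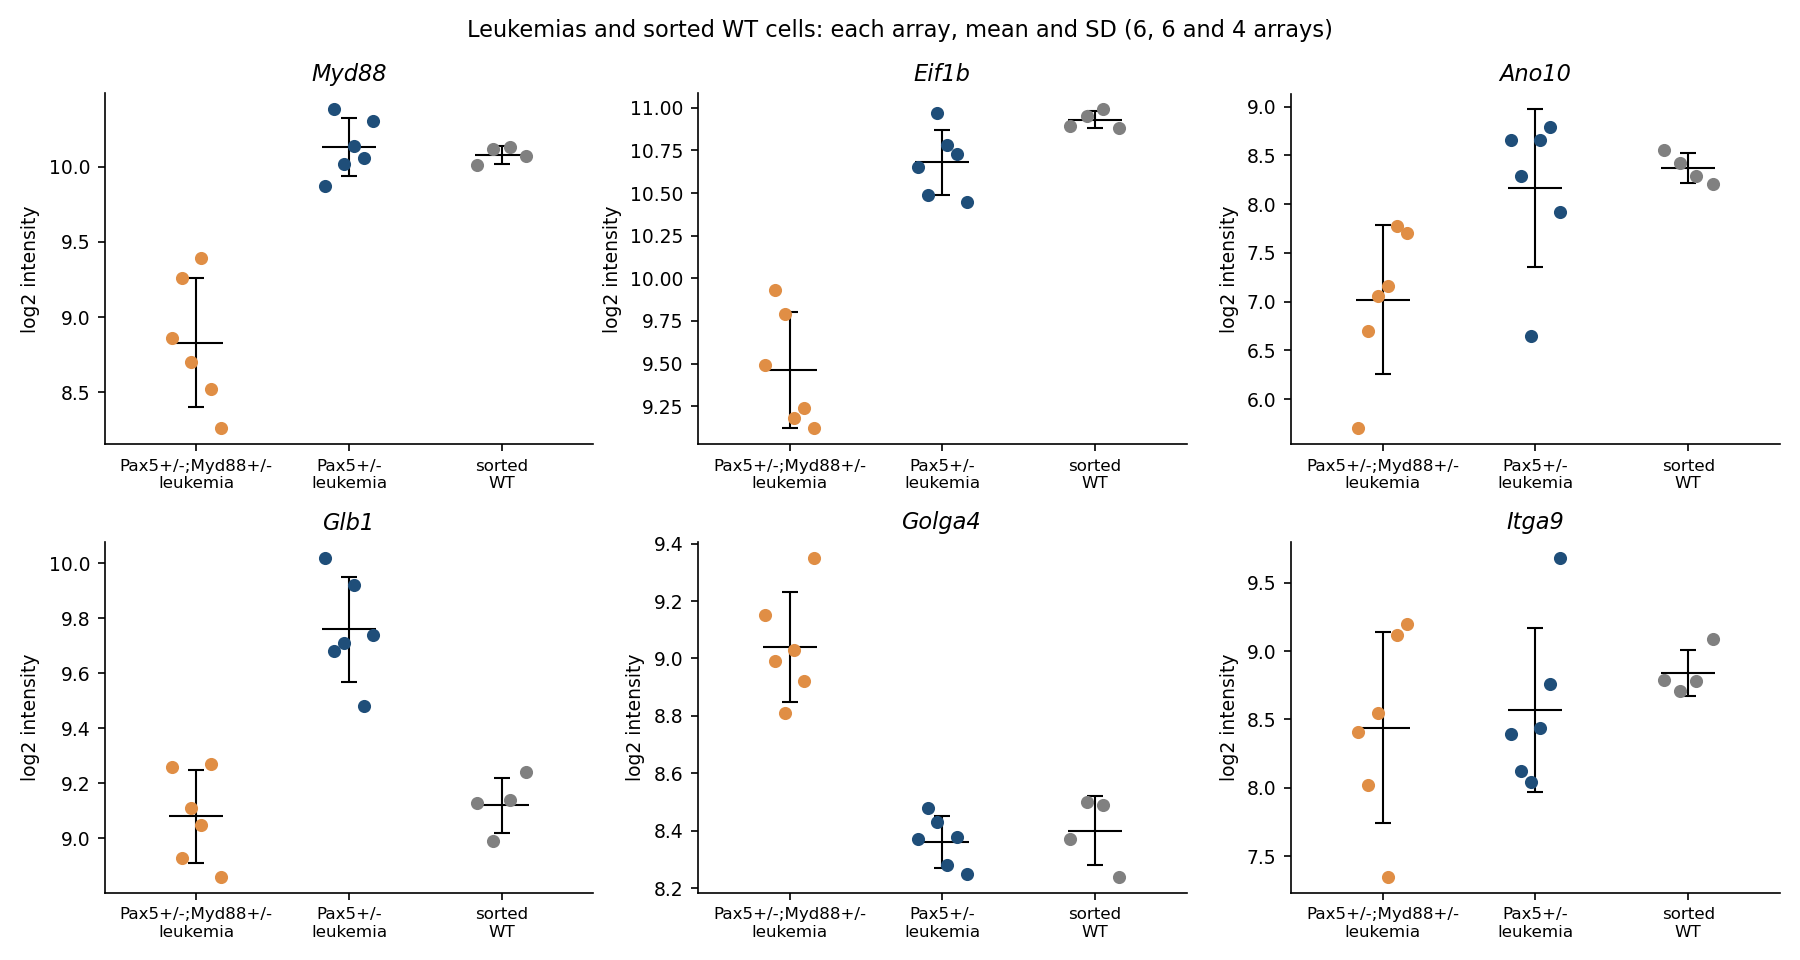
Log2 intensity (vertical axis, a separate scale in each panel) of Myd88 and 5 flanking genes in Pax5+/-;Myd88+/- leukemias, Pax5+/- leukemias and sorted WT cells, with a point per array and the mean and SD over 6, 6 and 4 arrays. Eif1b and Glb1 are lower and Golga4 higher in Pax5+/-;Myd88+/- leukemias without overlap with Pax5+/- leukemias, and Itga9 overlaps.

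Of the 5 flanking genes that passed in Pax5+/-;Myd88-/- against Pax5+/- pro-B cells, Higd1a and Ano10 also passed in Pax5+/-;Myd88+/- against Pax5+/- leukemias, Ano10 with the opposite sign, and Itga9, Ctdspl and Xylb did not. Itga9 was 7.35 to 9.20 (median 8.48) in Pax5+/-;Myd88+/- leukemias and 8.04 to 9.68 (median 8.41) in Pax5+/- leukemias (difference -0.13, SE 0.31, adjusted p = 0.777). Of the 8 nearest listed genes, Acaa1b rose by 0.30 and Exog fell by 0.28 in the leukemias, and Xylb differed by -0.32 (adjusted p = 0.0814). The Exog call was lost without Pax5+/-;Myd88+/- leukemia replicate 2, 3 or 4 or without Pax5+/- leukemia replicate 1, 3 or 5, at adjusted p = 0.0674 to 0.0836, and the Acaa1b call without Pax5+/-;Myd88+/- leukemia replicate 2 or without Pax5+/- leukemia replicate 1 or 5, at adjusted p = 0.052 to 0.0591. Between Pax5+/- leukemias and sorted WT cells, which share 2 intact alleles, 13 of 57 passed (22.8%), beside 24.5% of all probesets. Signal from Y-linked genes was present in 5 of 6 Pax5+/- leukemias and in 0 of 4 sorted WT arrays, so sex and group can hardly be told apart there. Crtap rose by 1.45 and Gpd1l fell by 1.5. In that comparison 9 of 10 NK cell, 5 of 6 erythroid and 3 of 9 B lineage markers passed lower, and none of these passed higher. Of the stromal markers 8 of 10 passed higher, as did 5 of 8 platelet, 5 of 10 macrophage and 1 of 10 granulocyte markers, and none passed lower. Among 9 T cell markers 1 passed higher and 3 lower. The part of these cells was not tested. The count was 8 without sorted WT replicate 4 (14%, and 17% of all probesets).

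Grouped by function, the counts that passed stand beside 11.5% of all probesets with 0 against 2 intact alleles in pro-B cells and 34.4% in the leukemias. Of 6 chemokine receptors and CMTM proteins (Ccr4, Ccr8, Cx3cr1, Cmtm6, Cmtm7 and Cmtm8), 0 passed in the 3 pro-B comparisons by Myd88 allele, with differences from -0.12 to 0.15, and 1, Ccr4, passed in the leukemias, at 0.15. The Ccr4 call was lost without Pax5+/-;Myd88+/- leukemia replicate 1, 4, 5 or 6 or without Pax5+/- leukemia replicate 1, 2, 4 or 5, at adjusted p = 0.0529 to 0.085. Of 11 signalling genes, 1 passed with 0 against 2 intact alleles (Ctdspl) and 3 in the leukemias (Dclk3 higher, Lrrfip2 and Plcd1 lower), of which Plcd1 was lost without Pax5+/-;Myd88+/- leukemia replicate 3 or 4 or without Pax5+/- leukemia replicate 1 or 5, at adjusted p = 0.0538 to 0.0567. Ctnnb1, which encodes beta-catenin, differed by -0.08, -0.09 and 0.04 in Pax5+/-;Myd88-/- pro-B cells, Pax5+/-;Myd88+/- pro-B cells and Pax5+/-;Myd88+/- leukemias, each against Pax5+/-. Of 9 genes of metabolism and mitochondria, 2 passed with 0 against 2 intact alleles (Higd1a and Xylb), and 2 rose and 3 fell in the leukemias, among them Slc25a38, the mitochondrial glycine carrier, at -0.36. The Slc25a38 call was lost without Pax5+/-;Myd88+/- leukemia replicate 1, 3, 5 or 6 or without Pax5+/- leukemia replicate 1, 4 or 6, at adjusted p = 0.0584 to 0.0796. Of 8 genes of membrane traffic and protein processing, 0 passed with 0 against 2 intact alleles, and 3 rose in the leukemias (Golga4, Myrip and Pdcd6ip). Of 7 genes of nucleus, RNA and translation, 0 passed with 0 against 2 intact alleles, and Eif1b and Cnot10, a subunit of the CCR4-NOT complex, fell in the leukemias. Of 9 genes of adhesion and cytoskeleton, Itga9 alone passed in the pro-B comparisons by allele and Dync1li1 alone in the leukemias.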

How the data were processed

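Total RNA of 32 samples was hybridised to Mouse Gene arrays, 1 array per sample, and the labels call the samples of a group biological replicates. The authors processed the arrays with Transcriptome Analysis Console, and the deposited values are log2 intensities per probeset after RMA background correction, quantile normalization and summarisation, already comparable between arrays, so that depth is not defined and the number of arrays limits the precision. Of 28944 probesets, 21789 were annotated to 1 gene, 1621 to several and 5534 to none, and 19856 of the 19938 genes had a chromosome. Gene positions are those of GRCm38.

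Differences were tested with limma 3.58.1 in R 4.3.3 (lmFit, eBayes), fitted over all probesets within the pro-B or the leukemia experiment, with Benjamini-Hochberg adjustment. The slope used 3 Pax5+/- pro-B genotypes. The script was tested on simulated data. Full values are given for Myd88, the 4 nearest listed genes on either side and genes past 2-fold with an adjusted p under 0.05, with the 6 largest passing changes per comparison and examples per function. The members and the gene lists were chosen with earlier results of these data known. Alternatives were the fit over all 7 groups or the 2 groups compared alone, centred arrays, a filter on dim probesets (mean log2 under 6), an intensity trend, the methods' t-test, a replicate block, the second probeset, sex as a covariate and each replicate left out. Averaging the paired pro-B replicates, and the test of leukemia against pro-B differences, were added after the data were seen.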

Additional observations from a re-analysis of the deposited data

Results flagged for a closer look

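In 5 of 91 sets of arrays (13 genes in 7 groups), 1 array stood apart from the others of its group by Dixon's criterion, which chance alone meets in about 1 in 20 sets. Myd88 was lowest at 7.04 in Pax5+/-;Myd88-/- pro-B replicate 3, and Ano10 was lowest at 8.33 in the same array. In Pax5+/- pro-B cells Higd1a was highest at 8.0 and Eif1b highest at 9.47 in replicate 1, and Acvr2b was lowest at 7.89 in replicate 3.

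For 9 genes the Pax5+/-;Myd88+/- minus Pax5+/- difference was not the same in leukemias and in pro-B cells, tested in limma as leukemia difference minus pro-B difference. For Myd88 this was -0.66 (adjusted p = 0.0212), and 8 of the 57 flanking genes passed (14%), beside 21.8% of all probesets. It was positive for Golga4, at 0.79 (leukemia 0.68, pro-B -0.11, adjusted p = 1.4e-05), Pdcd6ip, at 0.62 (adjusted p = 0.0174), and Myrip, at 0.36 (adjusted p = 0.00629). It was negative for Ano10, at -1.47 (leukemia -1.15, pro-B 0.32, adjusted p = 0.0158), Eif1b, at -0.98 (adjusted p = 0.000425), Lrrfip2, at -0.78 (adjusted p = 0.0022), Glb1, at -0.68 (adjusted p = 7.53e-05), and Dync1li1, at -0.32 (adjusted p = 0.0136). Leukemic marrow was unsorted and pro-B cells were enriched, and the leukemia groups mixed both sexes, so tissue, cell mixture and sex cannot be told apart from stage.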

How the results depend on the processing

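Itga9 against Pax5+/- cells and Ctdspl in both comparisons of Pax5+/-;Myd88-/- pro-B cells kept their calls in every alternative run. Among values of single genes, 941 kept direction and call, 118 kept the direction but were no longer called, and 5 reversed: on the second probeset Higd1a was -0.11 in Pax5+/-;Myd88-/- against Pax5+/- cells, 0.00 against Pax5+/-;Myd88+/- cells and 0.06 per allele, Trank1 was -0.05 in the leukemias, and Myd88 was 0.00 in Pax5+/- leukemias against sorted WT cells without Pax5+/- leukemia replicate 2. The causes were not tested. In the run on second probesets only Higd1a and Trank1 had another probeset. All other genes repeat their main value there and count among the 941, which says nothing on their stability.

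For Pax5+/-;Myd88-/- against Pax5+/- pro-B cells the count of 5 became 3 in the fit over all 7 groups (5.26%, and 4.45% of all probesets). It was 3 with paired replicates averaged (5.26%, and 1.85% of all). With a replicate left out it was 4 to 10, where 5.87% to 17.5% of all passed. For Pax5+/-;Myd88+/- against Pax5+/- cells the count of 1 became 0 with all 7 groups (1.22% of all probesets) and with 2 groups alone (3.86% of all). It was also 0 with centred arrays (4.07% of all), with the methods' t-test (2.76%) and with averaging (1.61%). With each replicate left out it was 1 (1.75%, and 3.65% to 3.93% of all). Between the Myd88 genotypes the count of 7 became 5 with all 7 groups (8.77%, and 4.53% of all) and 3 with averaging (5.26%, and 1.55% of all). With a replicate left out it was 6 to 12, where 5.04% to 14.8% of all passed. In the leukemias the count of 18 became 25 with all 7 groups (43.9%, and 43.9% of all) and 14 with 2 groups alone (24.6%, and 29.2% of all). It was 10 to 21 with a replicate left out, where 29.5% to 36.4% of all passed. For Pax5+/- against WT pro-B cells the count was 3 to 4 with a replicate left out (5.57% to 7.64% of all). With averaging it was 2 (3.51%, and 1.99% of all). For Pax5+/- leukemias against sorted WT cells it was 8 to 16 with a replicate left out (17% to 27.7% of all). The slope count of 3 became 0 with averaging (0.228% of all) and 2 to 6 with a replicate left out (3.4% to 16.2% of all). On the 2 genotypes of the same sex it was 8 (14%, and 14% of all), which repeats the comparison of those groups alone. The count of genes ordered by allele was 0 to 1. With the second probesets of Higd1a and Trank1 the count was 4 with 0 against 2 intact alleles (7.02%, and 11.5% of all). Between the Myd88 genotypes it was 6 (10.5%, and 10.4% of all). It was 16 in the leukemias by allele (28.1%, and 34.4% of all) and 2 for the slope (3.51%, and 6.69% of all). Around Pax5 the count of 5 became 0 with all 7 groups (1.85% of all) or averaging (1.99% of all) and 2 with 2 groups alone (4.99% of all). It was 1 with the methods' t-test (3.2% of all) and 3 with a replicate block (7.05% of all). With a replicate left out it was 2 to 4 (5.57% to 7.64% of all).

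Same-numbered arrays had a median correlation of deviations of 0.095 over 24 pro-B pairs (12 above 0.1) and -0.013 over 14 leukemia pairs (1 above 0.1), and differently numbered arrays of -0.06 over 72 pro-B pairs (24 above 0.1) and -0.023 over 70 leukemia pairs (17 above 0.1). All 4 same-numbered pairs exceeded 0.1 for Pax5+/-;Myd88-/- with WT pro-B cells (0.117 to 0.216), which were not compared, and for none of the compared groups, so the numbers were not taken to pair the samples. With the replicate number as a block the counts were 7, 1, 7 and 21 in the 4 comparisons by Myd88 allele (12.3%, 1.75%, 12.3% and 36.8%). Of all probesets 12%, 4.41%, 11.6% and 34.1% passed in these. In the comparisons of Pax5+/- with WT the counts were 4 and 12 (7.02% and 21.1%, beside 7.05% and 24.5% of all). For the slope the count was 4 (7.02%, and 5.59% of all).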

Other observations

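The chromosome whose genes passed most often in Pax5+/-;Myd88-/- pro-B cells was not that of Myd88. Against Pax5+/- cells 175 of 699 genes of chromosome 14 passed (25%), 153 higher and 22 lower, the highest share of 20 chromosomes, and chromosome 9, at 11.5%, ranked 10. Against Pax5+/-;Myd88+/- cells, of the same sex, 179 genes of chromosome 14 passed (25.6%), 162 higher and 17 lower. In Pax5+/-;Myd88+/- against Pax5+/- cells 4.6% passed. Among the 278 genes of chromosome 14 with a mean log2 intensity of 8 or more, the median difference was 0.24 against Pax5+/- cells, and among the 409 such genes of chromosome 9 it was 0.04. The median of the bright chromosome 14 genes was 0.29, 0.24, 0.19 and 0.25 in the 4 Pax5+/-;Myd88-/- arrays, relative to the Pax5+/- mean, beside 0.07, 0.03, -0.01 and 0.02 for the other chromosomes. These values were noticed after the data were seen and no cause was tested.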
